A study of Mus musculus with 6 samples.

Results

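Augmin is a complex of HAUS proteins that binds the side of an existing microtubule and recruits the γ-tubulin ring complex, so that a new microtubule grows from the old one. Such branching fills the mitotic spindle with microtubules and builds fibres to the kinetochores, and it is best known from dividing cells of the fly, frog and human. The family taken here is the genes of its 8 subunits, Haus1 to Haus8. A subunit was kept if the platform annotation gave it a probe set of its own, which left 7 genes with 8 probe sets among 19938 named genes with 21789 probe sets. Haus3 shares its probe set with Poln and was left out. The family was selected on the log2 difference between the GFP-positive and GFP-negative arrays, which had been seen when it was proposed, so its differences are given as a description, without a test.

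The cells were sorted from livers of weaned CyclinB1-GFP transgenic mice aged 3.5 weeks, whose transgene makes cells fluoresce green and bears the name of cyclin B1, the mitotic cyclin that builds up in G2. The 3 GFP-positive arrays hold cells that the labels call replicating, and the 3 GFP-negative arrays hold cells that they call quiescent. Both fractions came from the same 3 livers and carry the transgene, no drug or injury is named, and the promoter that drives the reporter is not given in the sources used here. In young livers hepatocytes divide as the organ grows, and the comparison asks which transcripts differ between dividing and resting liver cells.

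All 8 listed cell cycle genes, such as Mki67, Top2a and Cdk1, passed the test upward, where 1.55% of all named genes did. Their median log2 difference was 3.87 between GFP-positive and GFP-negative cells. The list was chosen with earlier results of these data known, so its count and median are a description of the sorted fractions. The mean of 11 hepatocyte markers, with Alb, Ttr and Apoa1 among them, lay between 11.45 and 11.75 on the log2 scale in GFP-positive arrays and between 11.66 and 11.88 in GFP-negative arrays. The means of 8 Kupffer cell markers were 4.12 to 4.26 in GFP-positive and 4.12 to 4.55 in GFP-negative arrays, and those of 8 endothelial markers were 4.99 to 5.06 in GFP-positive and 5.18 to 5.48 in GFP-negative arrays. For 8 stellate cell markers they were 4.66 to 4.90 in GFP-positive and 5.06 to 5.12 in GFP-negative arrays, and the part of these lower values in the differences below was not tested. No listed marker of Kupffer, endothelial, stellate, bile duct, lymphoid, erythroid or neutrophil cells passed the test upward, where 1.55% of all named genes did. Of these markers 1, the Kupffer cell gene Clec4f, passed downward (log2 difference -0.68, limma adjusted p = 0.032), where 0.115% of all named genes did. That call was lost with the replicate number as a block (limma adjusted p = 0.077). With so few markers listed, nothing is read from these counts. The median of all probe sets on an array was 4.60 to 4.74. Replicate number 2 of both groups had high Xist (9.80 in the GFP-positive and 9.03 in the GFP-negative array, against 3.73 to 4.04 in the other 4 arrays) and low Eif2s3y, a Y-linked gene. In bulk RNA, a share of expressing cells and an amount of RNA per cell cannot be told apart.

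The promoter sequences of the subunits were compared first, since many genes of cell division share motifs near their start. RefSeq sequences of the GRCm38.p6 build, from 250 bases before to 50 bases after the annotated start, were found for 7 of the 8 subunit genes, Haus2 with 2 starts, and not for Haus1. The 4 shown belong to Haus6 and Haus8, which had the largest differences among subunits with a promoter sequence, and to Haus5 and Haus2, which had the smallest. Each line gives the 250 bases before the start, 5′ to 3′ on the strand of the gene, and capitals mark a CCAAT box (CCAAT, the motif of the factor NF-Y) or a GC box (GGGCGG, the motif of Sp1-type factors) on either strand, so that ATTGG and CCGCCC are matches on the opposite strand.
Haus6 (chr4:86612056-86612305, minus strand): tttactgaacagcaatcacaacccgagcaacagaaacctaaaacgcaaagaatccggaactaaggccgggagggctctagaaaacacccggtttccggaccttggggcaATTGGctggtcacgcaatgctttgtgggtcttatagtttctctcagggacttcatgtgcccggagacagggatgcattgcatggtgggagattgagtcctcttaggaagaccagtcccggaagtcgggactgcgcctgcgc
Haus8 (chr8:71272591-71272840, minus strand): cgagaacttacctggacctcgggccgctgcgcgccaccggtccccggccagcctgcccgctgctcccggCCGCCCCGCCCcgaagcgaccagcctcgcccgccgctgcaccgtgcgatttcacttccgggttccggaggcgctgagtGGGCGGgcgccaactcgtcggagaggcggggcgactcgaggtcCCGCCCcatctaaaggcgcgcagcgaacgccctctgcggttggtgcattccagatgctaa
Haus5 (chr7:30664995-30665244, minus strand): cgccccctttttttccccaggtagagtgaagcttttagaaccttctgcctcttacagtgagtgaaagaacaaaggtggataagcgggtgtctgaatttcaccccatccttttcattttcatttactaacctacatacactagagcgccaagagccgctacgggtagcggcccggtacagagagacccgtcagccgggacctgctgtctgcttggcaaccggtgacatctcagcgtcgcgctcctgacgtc
Haus2 (chr2:120609132-120609381, plus strand): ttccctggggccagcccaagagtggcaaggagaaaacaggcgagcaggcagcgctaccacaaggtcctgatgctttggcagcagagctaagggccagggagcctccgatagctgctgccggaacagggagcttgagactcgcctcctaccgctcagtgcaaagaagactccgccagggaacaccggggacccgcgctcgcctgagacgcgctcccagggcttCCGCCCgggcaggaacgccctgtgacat

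The promoter of Haus6 held 1 CCAAT box and no GC box, and that of Haus8 held 5 GC boxes, 1 of them after the start, and no CCAAT box. Haus5 had neither motif, and the first start of Haus2 had 1 GC box. Over all 8 subunit starts a CCAAT box was found in 4, those of Haus3, Haus4, Haus6 and Haus7, beside 37.4% of 32851 promoter windows of the same length. A GC box was found in 6 of the 8, beside 35.7% of all windows. The windows of the 2 Haus2 starts overlap and share 1 GC box, which begins at -28 from the first start and at -241 from the second. Neither the cell cycle homology element (TTTGAA or TTCGAA, the motif of the DREAM and MuvB complexes) nor an E2F site (TTTGGCGC, TTTGCCGC, TTTCGCGC or TTTCCCGC) was in any of the 8 windows, beside 19.2% and 2.26% of all windows. All motifs were searched on both strands, and the letters of one do not hold those of another. Of the subunits with a large difference described below, Haus6 thus held a CCAAT box and Haus8 did not. The share of G and C before the start was 72.0% for Haus8, 53.6% for Haus6, 53.2% for Haus5 and 64.8% for the first start of Haus2, with a median of 52.4% over all promoters.

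**Figure D1:**
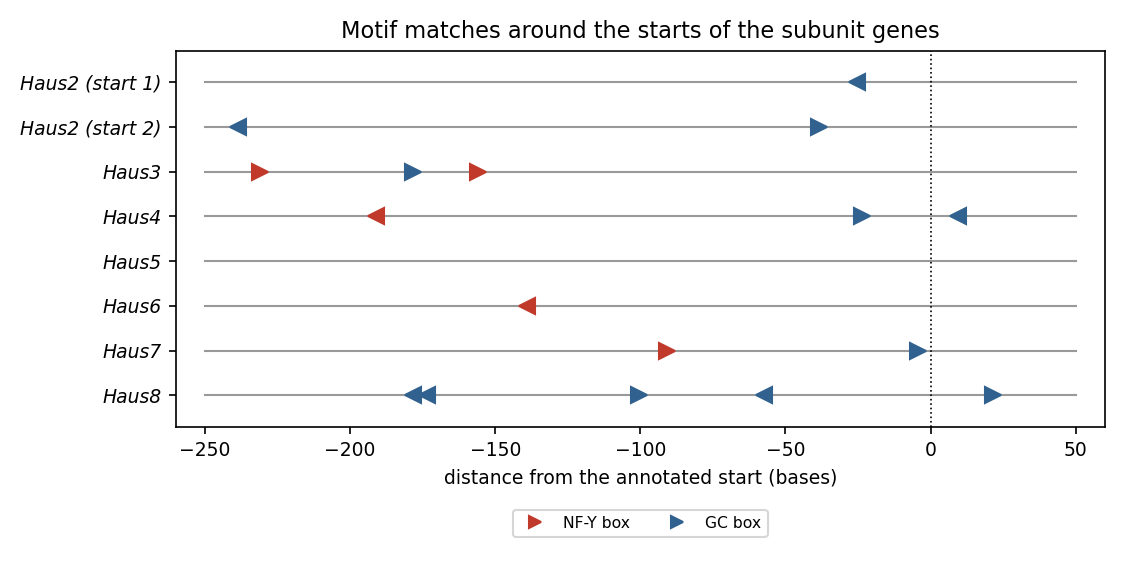
Motif matches in the windows around the annotated starts of 7 subunit genes, by distance from the start in bases, with Haus2 at its 2 starts, whose windows overlap. Arrowheads point right for matches on the strand of the gene and left for the opposite strand. The NF-Y box is found at 4 of the 8 starts and the GC box at 6, and Haus5 has neither.

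Transcripts of 3 augmin subunits, Haus6, Haus1 and Haus8, were higher in GFP-positive than in GFP-negative cells, with log2 differences of 1.47, 1.33 and 0.97. Those of Haus7 and Haus4 were 0.59 and 0.42, and those of Haus5 and Haus2 were 0.15 and 0.13, no larger than their standard errors. The value of Haus5 is from the brighter of its 2 probe sets, which may not read its locus, as described below. The dimmer gave 0.30 ± 0.21 (SE). The difference of each subunit was above 0, as was that of 44.3% of all named genes. The median over the 7 subunits was 0.59, against -0.03 over all named genes. In the limma fit over all named genes with Benjamini-Hochberg adjustment, Haus1, Haus6 and Haus8 lay past an adjusted p of 0.05, that is 3 of 7, where 1.55% of all named genes did so upward. As the family was proposed from this comparison, nothing is read from that count.

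The subunits are given by the module they belong to, first the one that contacts the microtubule, known from human and frog augmin to hold HAUS2, HAUS6, HAUS7 and HAUS8. Haus6 (probe set 10514201) encodes the large subunit whose tail binds NEDD1, the adaptor of the γ-tubulin ring complex in human cells. Its log2 intensity was 6.11, 6.15 and 6.30 in GFP-positive arrays 1, 2 and 3, against 4.55, 4.95 and 4.65 in GFP-negative arrays 1, 2 and 3. The GFP-positive values lay close together and more than 1 log2 unit above each GFP-negative value. The means were 6.19 ± 0.10 in GFP-positive cells and 4.71 ± 0.21 in GFP-negative cells (SD, n = 3 each), a difference of 1.47 ± 0.15 (SE), or 2.77-fold. In 2 of the 3 GFP-negative arrays Haus6 was below the median of all probe sets, and with those values set to the median of their array the fold was 2.66.

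Haus8 (probe set 10579468) encodes the subunit whose N-terminal part binds microtubules and which is a substrate of Aurora A in human cells. It had 5.03, 5.08 and 5.26 in GFP-positive arrays 1, 2 and 3, against 4.16, 4.07 and 4.25 in GFP-negative arrays 1, 2 and 3. The groups were well apart and each was tight. The means were 5.12 ± 0.12 in GFP-positive cells and 4.16 ± 0.09 in GFP-negative cells (SD, n = 3 each), a measured difference of 0.97 ± 0.14 (SE). All 3 GFP-negative values were below the array medians, so only a bound can be given for the fold, at least 1.38-fold, computed with each such value set to the median of its array.

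Haus7 (probe set 10605055), known under its older name Uchl5ip as a partner of the deubiquitinase UCHL5, had 6.01, 5.65 and 6.22 in GFP-positive arrays 1, 2 and 3, against 5.16, 5.57 and 5.36 in GFP-negative arrays 1, 2 and 3. The groups did not overlap, but GFP-positive 2 and GFP-negative 2 lay only 0.08 apart. The difference over all arrays was 0.59 ± 0.18 (SE), or 1.51-fold, between means of 5.96 ± 0.29 in GFP-positive cells and 5.36 ± 0.20 in GFP-negative cells (SD, n = 3 each), and it was 0.85 without both arrays of number 2. Haus2 (probe set 10475211), first described as the centrosomal protein Cep27, had 5.38, 5.17 and 5.30 in GFP-positive arrays 1, 2 and 3, against 5.11, 5.55 and 4.80 in GFP-negative arrays 1, 2 and 3. The highest and the lowest value of Haus2 were both GFP-negative, so the groups overlapped. Its difference was 0.13 ± 0.19 (SE), smaller than its error.

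The other module of the complex, which in human cells holds HAUS1, HAUS3, HAUS4 and HAUS5 and extends away from the microtubule contact, was measured through 3 genes. Haus1 (probe set 10459844), a coiled-coil subunit of augmin, had 8.46, 8.85 and 8.78 in GFP-positive arrays 1, 2 and 3, against 7.75, 7.30 and 7.03 in GFP-negative arrays 1, 2 and 3. The groups were apart, and the gap was smallest for number 1, whose GFP-positive value was the lowest of its group and whose GFP-negative value was the highest. The means were 8.70 ± 0.21 in GFP-positive cells and 7.36 ± 0.36 in GFP-negative cells (SD, n = 3 each), a difference of 1.33 ± 0.20 (SE), or 2.52-fold. When both arrays of number 2 were left out, an alternative added after seeing the values, the difference was 1.23 and Haus1 was no longer past the threshold, which left 2 of 7 subunits past it.

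Haus4 (probe set 10419779), also a coiled-coil subunit, had 5.94, 5.68 and 6.26 in GFP-positive arrays 1, 2 and 3, against 5.48, 5.44 and 5.70 in GFP-negative arrays 1, 2 and 3. GFP-positive 2 lay just below GFP-negative 3, so the groups overlapped, and the difference was 0.42 ± 0.17 (SE), or 1.34-fold. Haus5, a further coiled-coil subunit on chromosome 7, has 2 probe sets that the platform annotation gives to it alone. Probe set numbers of the other subunits rise from chromosomes 14 and 18 to 2, 4, 8 and X. The dimmer of Haus5 falls between Haus6 (chromosome 4) and Haus8 (chromosome 8), whereas the brighter lies below all other subunits. The brighter, which represents Haus5 elsewhere in this report, may thus not read the Haus5 locus, and this was not tested. The brighter, 10352356, had 4.88, 5.19 and 5.19 in GFP-positive arrays 1, 2 and 3, against 4.96, 4.71 and 5.13 in GFP-negative arrays 1, 2 and 3, a difference of 0.15 ± 0.16 (SE). The dimmer, 10562084, had 4.05, 3.62 and 4.48 in GFP-positive arrays 1, 2 and 3, against 3.82, 3.74 and 3.67 in GFP-negative arrays 1, 2 and 3, all below the array medians, a difference of 0.30 ± 0.21 (SE). Both probe sets of Haus5 overlapped between the groups.

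**Figure D2:**
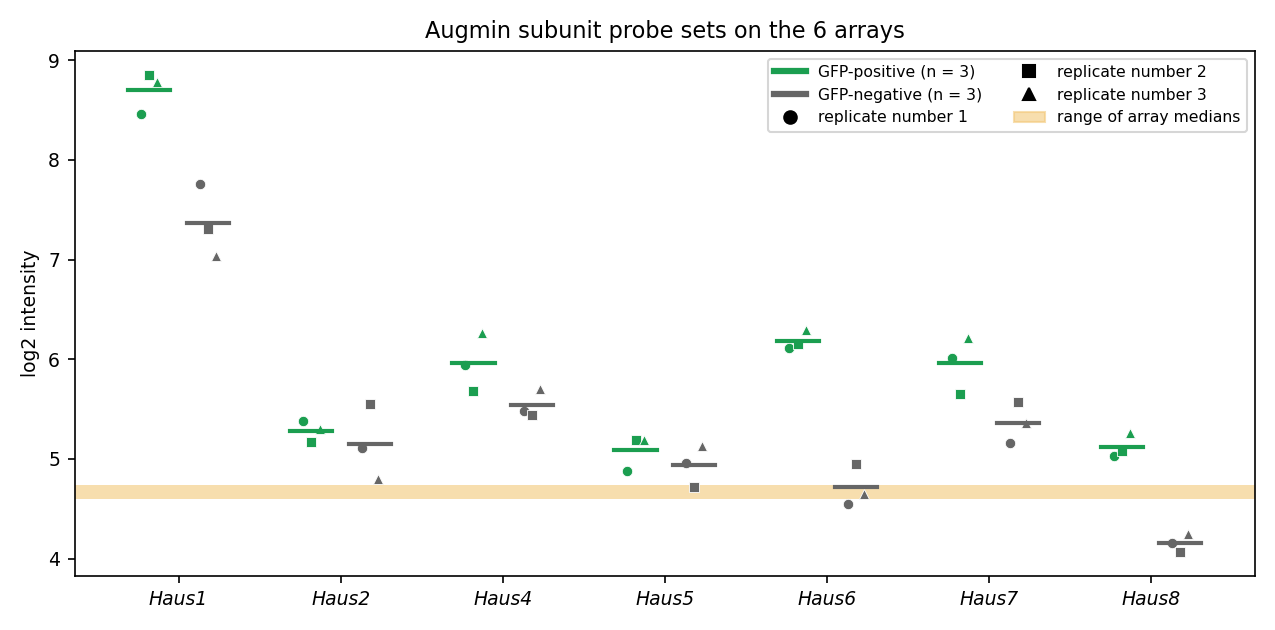
Log2 intensity of 7 augmin subunits on each array, GFP-positive left of GFP-negative, with a bar at each group mean (n = 3 each) and a band for the range of the array medians, 4.60 to 4.74. Haus1, Haus6, Haus7 and Haus8 show no overlap between the groups, Haus2, Haus4 and Haus5 do, and Haus8 is below the band in GFP-negative cells. Haus5 is shown by its brighter probe set.

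The groups did not overlap for 4 of the 7 subunits, Haus1, Haus6, Haus7 and Haus8, where 6.82% of all named genes were without overlap upward. Among GFP-positive arrays, array 3 was the highest for 5 of the 7 subunits and array 1 the lowest for 4, while no GFP-negative array was the highest for more than 3. Between arrays of the same replicate number the median difference of the 7 subunits was 0.71 for number 1, 0.48 for number 2 and 0.85 for number 3. All 7 subunits were above 0 for number 3 and 6 of 7 for each of the others, Haus5 being below 0 for number 1 (-0.08) and Haus2 for number 2 (-0.38). Haus6 (1.21 to 1.64) and Haus8 (0.88 to 1.01) kept close values over the 3 numbers, whereas Haus1 ranged from 0.71 to 1.74. All GFP-negative values of Haus8 and most of Haus6 were below the array medians, and those of Haus1 were above. The spreads of these subunits are thus not on a like footing.

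**Figure D3:**
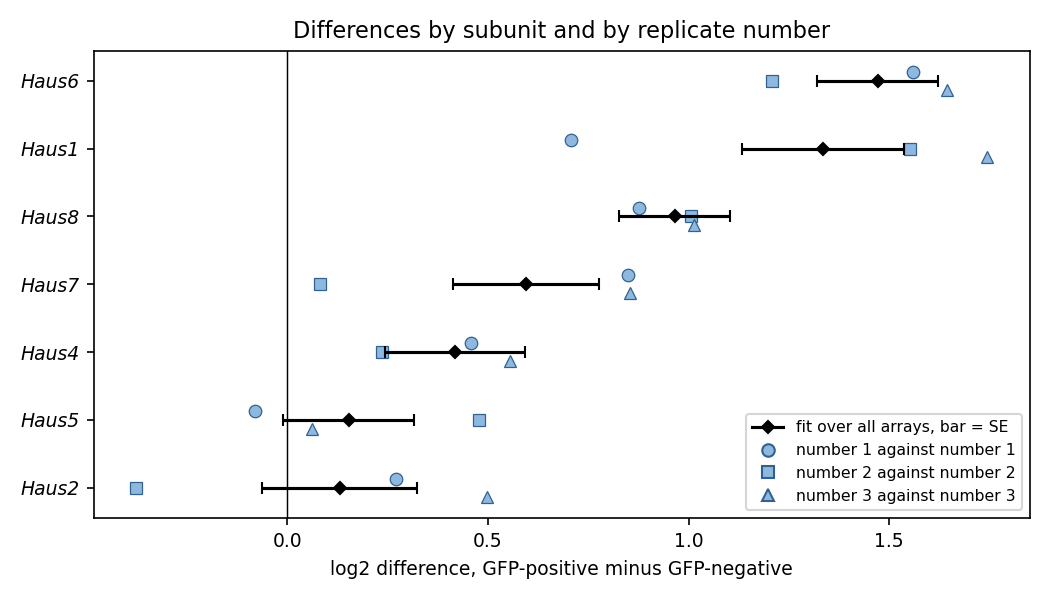
Log2 difference of each subunit, GFP-positive minus GFP-negative, from the fit over all arrays (diamonds, bars show SE) and between arrays of the same replicate number. Haus6 and Haus8 stay near their fitted values of 1.47 and 0.97 at each number, and Haus2 and Haus5 scatter on both sides of 0. GFP-negative values of Haus8 are all below the array medians. Haus5 is shown by its brighter probe set.

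The γ-tubulin ring complex, the nucleator that augmin brings to the microtubule, was measured through 12 genes. Of these 1 passed the test upward and 0 downward, where 1.55% and 0.115% of all named genes did, and 9 of the 12 differences were above 0, with a median of 0.20. The gene that passed was Cdk5rap2, which encodes a centrosomal activator of the ring complex. It had 6.72, 6.33 and 6.91 in GFP-positive arrays 1, 2 and 3, against 5.46, 5.50 and 5.23 in GFP-negative arrays 1, 2 and 3. The groups of Cdk5rap2 did not overlap, and the log2 difference was 1.26 ± 0.18 (SE; limma adjusted p = 0.0043). Nedd1, the adaptor to which augmin binds, had means of 6.88 ± 0.11 in GFP-positive cells and 6.27 ± 0.22 in GFP-negative cells (SD, n = 3 each), with a difference of 0.61 ± 0.16 (SE; limma adjusted p = 0.13). Tubgcp2 differed by 0.43 ± 0.15 (SE; limma adjusted p = 0.35). With Nedd1 and Tubgcp2, 3 of the 12 genes were without overlap upward, as were 6.82% of all named genes. Tubg1, the main γ-tubulin gene of dividing cells, differed by 0.42 ± 0.27 (SE; limma adjusted p = 0.77).

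Of 15 listed partners of branching and spindle assembly, 8 passed the test upward and 0 downward, where 1.55% and 0.115% of all named genes did. The median difference was 1.25. This list and that of the ring complex were chosen with earlier results of these data known, so nothing is read from either count. The 8 that passed were Aurka, Tpx2, Dlgap5, Plk1, Tacc3, Kpna2, Ckap5 and Cep192. Aurka, the Aurora A kinase, had means of 9.06 ± 0.10 in GFP-positive cells and 5.27 ± 0.18 in GFP-negative cells (SD, n = 3 each), or 13.8-fold (limma adjusted p = 1.2e-06). Tpx2, which activates Aurora A and works beside augmin in branching, was at least 10.9-fold higher (8.18 ± 0.15 in GFP-positive cells and 4.56 ± 0.25 in GFP-negative cells, SD, n = 3 each, limma adjusted p = 2.0e-06). Plk1, the Polo kinase that promotes the loading of augmin on spindles, had 8.20, 7.21 and 8.12 in GFP-positive arrays 1, 2 and 3, against 4.77, 4.30 and 4.96 in GFP-negative arrays 1, 2 and 3. It thus had its lowest value in number 2 of each group, with a difference of 3.16 ± 0.27 (SE; limma adjusted p = 0.00015). Dlgap5, a kinetochore fibre protein gene, differed by 3.41 ± 0.14 (SE; limma adjusted p = 1.3e-06). The other 7 did not pass: Cltc, Eml3, Numa1, Ran, Rcc1, Kpnb1 and Pcnt, with differences from -0.06 (Eml3) to 0.47 (Ran).

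**Figure D4:**
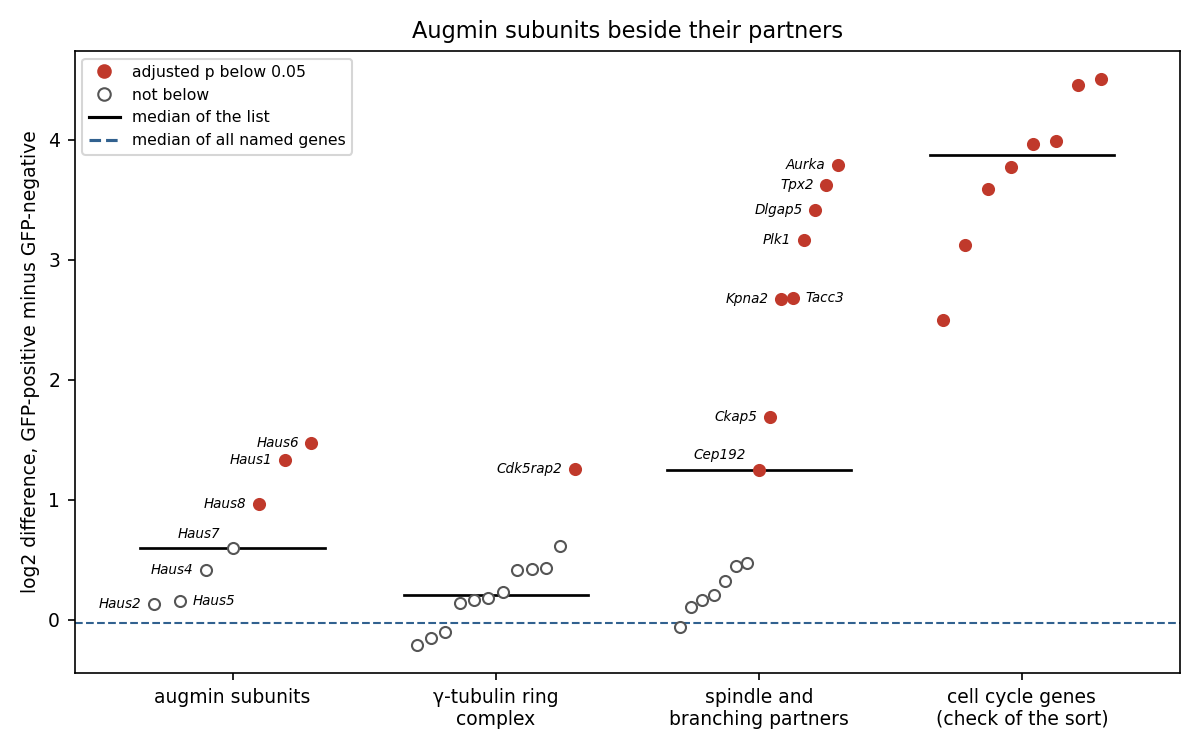
Log2 differences, GFP-positive minus GFP-negative, of 7 augmin subunits, 12 γ-tubulin ring complex genes, 15 spindle and branching partners and 8 cell cycle genes. Each point is a gene, filled where the limma adjusted p was below 0.05, and bars mark list medians, which are 0.59, 0.20, 1.25 and 3.87 from left to right.

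The genes whose profile over the 6 arrays was most like that of Haus6, by Euclidean distance between log2 values centred on each gene's mean, were Rad21 (distance 0.21), Blm (0.29) and Cep128 (0.30). Rad21, a cohesin subunit, had 10.27, 10.20 and 10.54 in GFP-positive arrays 1, 2 and 3, against 8.83, 9.13 and 8.95 in GFP-negative arrays 1, 2 and 3. Blm, a helicase of homologous recombination, and Cep128, a centriole protein, had differences of 1.67 and 1.49, with GFP-negative means below the array medians. The nearest to Haus1 were Vrk1 (0.26), a chromatin kinase, Hpf1 (0.30), a partner of PARP1, and Arhgap18 (0.36), with differences of 1.29, 1.18 and 1.16. The distance includes the difference between the groups, so the differences of the nearest genes are close to those of Haus6 and Haus1 by construction. Among the subunits themselves Haus4 and Haus7 were the closest pair (0.44) and Haus5, by its brighter probe set, and Haus6 the farthest (1.72).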

How the data were processed

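Total RNA of sorted cells, 10 ng per sample, was amplified, biotin-labelled and hybridised to Affymetrix arrays, per the labels' protocols. Per the submitters' processing notes the authors ran RMA, whose version and settings are not stated in the sources used here, and deposited an intensity for each probe set on each array. RMA values are usually log2, but these deposited intensities are linear (1.62 to 15836, array medians 24.3 to 26.7), so log2 was taken first, with no further normalization, no filter and no detection calls. Of 35512 probe sets, 21789 have 1 symbol in the platform annotation, 1621 have several and 12102 none. Symbols were updated through Entrez identifiers for 21698 (RefSeq, GRCm38.p6), and each of 19938 genes is represented by the brightest of its probe sets on average.

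Groups were compared with limma 3.58.1 in R 4.3.3 (lmFit, eBayes without trend, group as the single term, 4 residual and 5.44 prior degrees of freedom, Benjamini-Hochberg over all 19938 genes at 0.05), checked on simulated data. Precision is limited by the 3 arrays per group. The members and lists were chosen with earlier results of these data known. Named genes are all measured subunits, at most 4 called genes per partner list, and the 3 nearest profiles of the 2 subunits with the largest differences, clone and predicted names left out. Clec4f, Nedd1, Tubgcp2, Tubg1, the remaining partners and the extreme pairs of subunits were named after their values were seen. The design text says that both fractions came from the same 3 livers, and number 2 of both groups shows the same sex-linked pattern. Replicate numbers were therefore taken to mark the mouse, although numbers 1 and 3 share a sex-linked pattern and cannot be matched by it. The correlation across genes was taken after removal of group means. Between same-numbered arrays it was 0.20 for number 1, 0.06 for number 2 and -0.05 for number 3. Between arrays of unlike number it ran from -0.19 to 0.10, the highest for GFP-positive 2 with GFP-negative 3. Alternatives were quantile normalization, median centring, leaving out genes with low means, other summaries of probe sets, a variance trend, array weights, a replicate block, other thresholds, and leaving out arrays. Python 3.11.15 with numpy 2.4.6, pandas 2.3.3 and matplotlib 3.10.9 served for tables and plots.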

Additional observations from a re-analysis of the deposited data

How the results depend on the processing

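Haus6 and Haus8 were past the threshold in all 15 alternatives and Haus1 in 14, while Haus2, Haus4, Haus5 and Haus7 were in none. The refits use the same arrays from which the family was proposed, so nothing is read from these counts either. The differences of Haus6 ran from 1.39 to 1.60, those of Haus8 from 0.90 to 1.01 and those of Haus1 from 1.11 to 1.53. Haus2 and Haus5 were each slightly below 0 in 1 alternative (-0.04 and -0.01). The number of subunits past the threshold was 3 in each alternative except that without both arrays of number 2, where it was 2. The median over the subunits, 0.59 with all arrays, was 0.47 to 0.75 when single arrays were left out and 0.85 without both arrays of number 2. With the replicate block the count was again 3 subunits, 1 ring complex gene and 8 partners, and among the named genes it removed the call of Clec4f (adjusted p = 0.077) and changed no other. Of 165 refits of 11 genes other than subunits, 161 kept their call. The 11 were Cdk5rap2, Aurka, Tpx2, Dlgap5, Plk1 and the nearest profiles of Haus6 and Haus1, and Clec4f was not among them. They were chosen by their values on these same arrays, so most calls were bound to be kept. Hpf1 did not pass without GFP-positive 2, without GFP-positive 3 or without both arrays of number 2, and Arhgap18 did not pass without that pair. The count of all lower genes, 23, was 13 with centred arrays, 53 with array weights, 3 and 46 at adjusted p thresholds of 0.01 and 0.1, 9 without both arrays of number 2, and 6 to 29 without single arrays. The causes were not tested. Without detection calls, values below the array medians limit what can be said of Haus8 and Haus6 in GFP-negative cells. The same holds for the dimmer Haus5 probe set in both groups.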
